A study of Mus musculus with 6 samples.

Results

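The enzymes and transporters of glycolysis and the pentose phosphate pathway were compared, isozyme by isozyme, between normal myeloid progenitors (MPs) and c-Kit+ acute promyelocytic leukemia (APL) progenitors of the mouse. The members were chosen by symbol: 40 genes for glucose uptake, the steps from glucose to pyruvate and lactate, the pyruvate dehydrogenase (PDH) gate and the pentose phosphate branch, and all 40 were found among the 16440 genes of the deposited RNA-seq table. Normal MPs were Lin-Sca-1-c-Kit+ cells sorted from the bone marrow (BM) of FVB N/J mice, a gate that holds granulocyte and monocyte, erythroid and megakaryocyte, and common myeloid progenitors alike. APL cells of the same strain came from hMRP8-PML/RARα transgenic mice, in which the human MRP8 promoter drives the PML/RARα fusion in myeloid cells. They were marked with GFP by the MigR1 retroviral vector and expanded in syngeneic recipients, and the GFP+ c-Kit+ fraction was sorted. Neither group is labelled as drug-treated. The labels give no age. The study's methods give the age of transplant recipients in weeks, a young adult range, and describe them as irradiated sublethally or not at all. Each group had 3 libraries, described as biological replicates. Whether they came from separate mice is not given in the sources used here, so P values measure the spread between these libraries. Total fragments per library lay between 20608715 and 28382785.

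Glycolysis splits glucose into pyruvate with a net gain of ATP, and lactate dehydrogenase turns pyruvate into lactate, which monocarboxylate transporters carry out of the cell. The pentose phosphate pathway branches off after the hexokinase step and yields NADPH and ribose phosphate. Several steps have isozymes encoded by separate genes, with different tissue distribution and regulation, and immature blood cells as well as leukemia cells are known for a high use of glycolysis.

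The libraries were checked against their sort before the genes were compared. Kit, the receptor of the sort, had a mean of 72.4 FPKM (fragments corrected for transcript length and sequencing depth) in normal MPs and 40.4 FPKM in APL progenitors. Ly6a, which encodes Sca-1, was at 1.36 and 2.18 FPKM. Cd34, a progenitor surface antigen, was at 94.5 FPKM in MPs and 1.15 FPKM in APL progenitors. Replicates of a group differed by more than counting noise. The median squared difference was 12.3 and 12.2 times the counting noise for the pairs with MP library 3, against 3.20 for MP libraries 1 and 2, and between 3.88 and 6.43 for the APL pairs. Xist, the long noncoding RNA of the inactive X chromosome, was at 61314 and 63138 scaled fragments in MP libraries 1 and 2, at 22259 in MP library 3 and between 11120 and 17188 in the APL libraries. Without MP library 3, 25 of the 26 member calls below were made again.

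Of the 40 genes, 19 were upregulated in APL progenitors, 7 were downregulated and 14 were not called, where a call needs more than 1.5-fold change and an adjusted P under 0.05 (limma on scaled fragments, the deposited fragment estimates scaled by library; Benjamini-Hochberg over the 14595 genes that entered the fit). Among all genes tested, 46.1% were called, 21.7% upregulated and 24.4% downregulated. All 40 members passed the filter on low values. Their median log2 fold change was 0.48, against -0.10 for all genes tested. With a fold change over 2, 10 members were upregulated and 5 downregulated, where 31.5% of all genes were called, 14.9% up and 16.6% down. The 3 APL libraries lay above the 3 MP libraries for 21 members and below them for 13, and the groups overlapped for 6; of all genes tested, 70.9% did not overlap, 31.1% above and 39.8% below. Scaling every library to the same total moved the median of all genes by -0.13 and gave 13 members upregulated and 10 downregulated. Of the 14877 genes then tested, 2754 were upregulated and 4376 downregulated. Voom weights gave the same member counts, with 2735 of 14595 genes upregulated and 4264 downregulated. The plot of 40 fold changes shows genes of both directions within glucose uptake, upper glycolysis, lower glycolysis and the lactate genes.

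**Figure D1:**
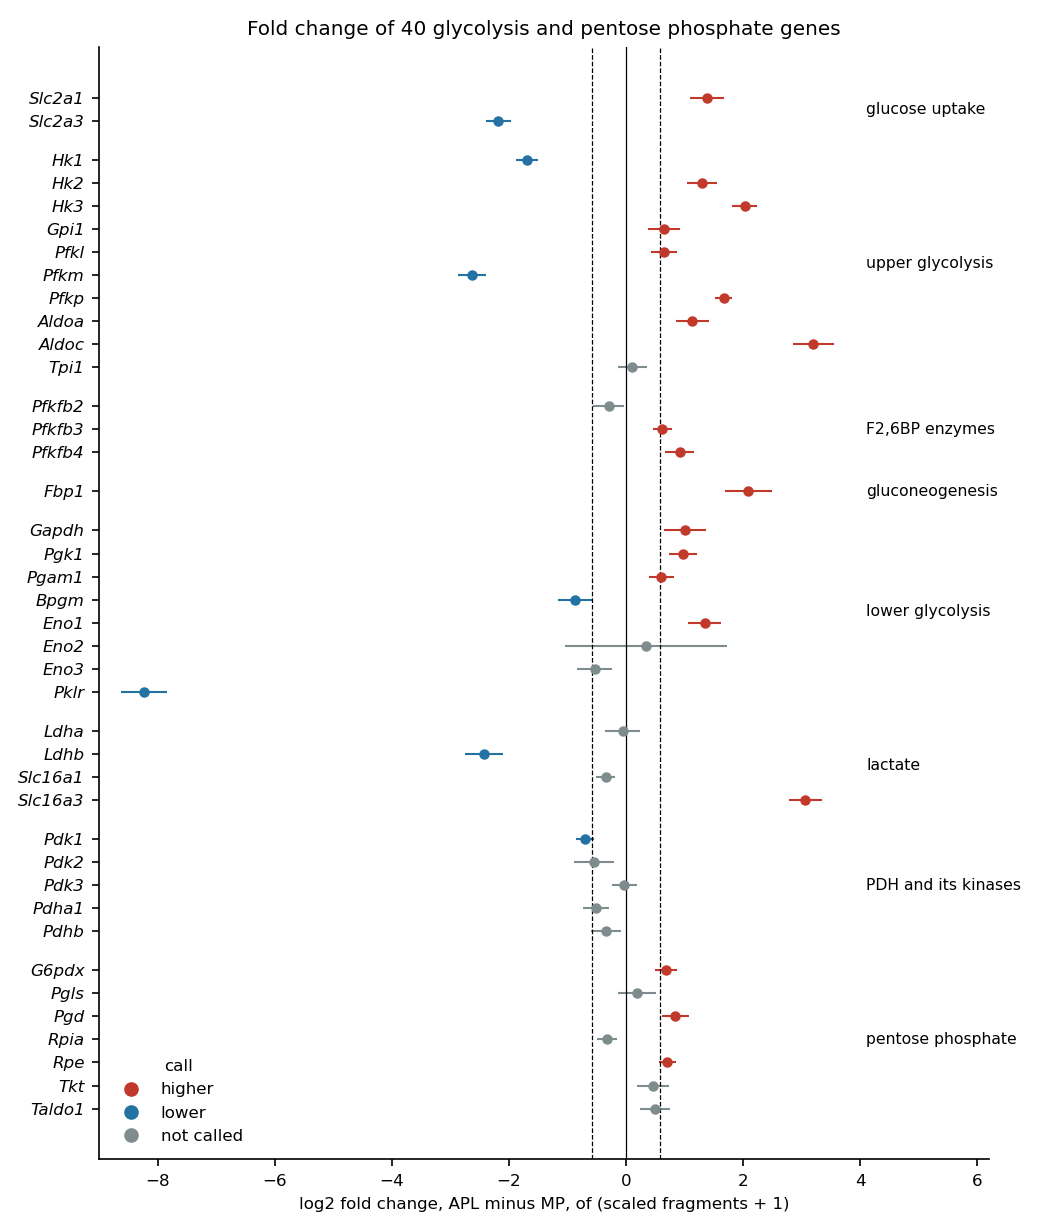
Log2 fold change (APL minus MP, on log2(scaled fragments + 1)) of each of the 40 genes with its 95% confidence interval from limma, ordered by step; red and blue mark genes called up and down, grey those not called, and dashed lines the 1.5-fold threshold. Pklr lies far to the left at -8.24, while the other members lie between -2.63 and 3.20.

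The leading glucose transporter gene among the members changed, while the summed level of both overlapped between the groups. Slc2a1, which encodes GLUT1, the widely expressed glucose transporter, was upregulated in APL progenitors and Slc2a3, which encodes the high-affinity transporter GLUT3, was downregulated. Slc2a1 (chr4:119108745-119137329, mm10) had 305, 261 and 336 scaled fragments in the MP libraries and 676, 843 and 837 in the APL libraries. That was a log2 fold change of 1.38 (SE 0.13, adjusted P = 1.7e-05). Slc2a3 (chr6:122727809-122742745) had 1159, 1151 and 1341 scaled fragments in MPs and 279, 266 and 254 in APL progenitors. It fell by 2.18 on the log2 scale (SE 0.095, adjusted P = 1.6e-07). No library of one group reached the range of the other for either gene. Per transcript length, Slc2a1 made up 29.8% ± 1.46 (SD, n = 3) of the summed FPKM of the pair in MPs and 83.6% ± 2.43 in APL progenitors. The two-sided exact permutation test gave p = 0.1, the smallest that 3 libraries against 3 allow. The summed level was 17.0 ± 1.39 FPKM in MPs and 15.8 ± 1.42 FPKM in APL progenitors, and the groups overlapped. This sum leaves out Slc2a8, a gene of the same family outside the member list, at 8.08 FPKM in MPs and 5.19 FPKM in APL progenitors. Slc2a8 was downregulated (log2 fold change -0.61, adjusted P = 0.011), a call lost under 6 of 18 alternatives.

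The hexokinases, which trap glucose as glucose 6-phosphate, showed an exchange of the same kind but with a higher total. Hk1, the ubiquitous mitochondria-bound form, had 9610, 10115 and 11271 scaled fragments in MPs and 3068, 3383 and 3166 in APL progenitors. Its log2 fold change was -1.69 (SE 0.082, adjusted P = 2.9e-07). Hk3, a hexokinase of white blood cells, went from 4970, 4746 and 4260 to 17239, 20633 and 19021, a log2 fold change of 2.02 (SE 0.095, adjusted P = 2.4e-07). Hk2, the inducible form of muscle and many tumors, went from 1254, 1023 and 908 to 2459, 2696 and 2604, a log2 fold change of 1.30 (SE 0.11, adjusted P = 1.1e-05). In every library of its group Hk1 was the leading hexokinase of MPs and Hk3 that of APL progenitors. Hk1 took 59.2% ± 4.25 of the summed hexokinase FPKM in MPs and 10.5% ± 0.367 in APL progenitors, and Hk3 36.2% ± 3.46 and 83.1% ± 0.582. The summed hexokinase level was 143 ± 1.23 FPKM in MPs and 255 ± 20.2 FPKM in APL progenitors, 1.78 times as high.

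Gpi1, which isomerizes glucose 6-phosphate to fructose 6-phosphate, was at 22094, 19897 and 25459 scaled fragments in MPs and 32535, 37623 and 35478 in APL progenitors, a log2 fold change of 0.65 (SE 0.12, adjusted P = 0.0012). This upregulation fell under the 1.5-fold threshold without MP library 2, at 0.57, and with equal library totals, at 0.52.

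Phosphofructokinase commits sugar to glycolysis, and its 3 subunit genes moved in different directions. The muscle-type subunit gene Pfkm (chr15:98038744-98132447) fell from 2308, 2505 and 2876 scaled fragments in MPs to 377, 442 and 416 in APL progenitors. Its log2 fold change of -2.63 (SE 0.10, adjusted P = 8.1e-08) was the lowest among the members after Pklr. The platelet-type gene Pfkp had 1469, 1383 and 1344 scaled fragments in MPs and 4441, 4471 and 4398 in APL progenitors, a log2 fold change of 1.67 (SE 0.065, adjusted P = 8.2e-08). The liver-type gene Pfkl, with 3021, 3121 and 3594 against 4537, 5506 and 5242, rose by 0.65 (SE 0.098, adjusted P = 0.00035), and with equal library totals its 0.52 was under the fold threshold. Pfkm held 40.9% ± 1.51 of the summed phosphofructokinase FPKM in MPs and 5.21% ± 0.126 in APL progenitors. Pfkp went the other way, from 16.6% ± 1.68 to 41.9% ± 2.48, and Pfkl from 42.6% ± 0.313 to 52.9% ± 2.36. The sum was 1.26 times as high in APL progenitors, 92.5 ± 4.88 against 73.5 ± 4.46 FPKM, without overlap. Pfkm lies on chromosome 15, whose tested genes had a median log2 fold change 0.58 above that of the other chromosomes. The part of this shift in the value of Pfkm was not tested.

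The enzymes that make and break fructose 2,6-bisphosphate, the activator of phosphofructokinase, were led by Pfkfb3, a form with high kinase activity. Pfkfb3 had 2014, 1901 and 1758 scaled fragments in MPs and 2930, 2907 and 2836 in APL progenitors (log2 fold change 0.61, SE 0.071, adjusted P = 6.9e-05). It fell under the 1.5-fold threshold without MP library 3, at 0.56, and with equal library totals, at 0.48. Pfkfb4 had 668, 517 and 602 in MPs and 1042, 1157 and 1152 in APL progenitors, a log2 fold change of 0.91 (SE 0.11, adjusted P = 7e-05). Pfkfb2, with 1140, 1177 and 945 against 1002, 856 and 795, overlapped between the groups and was not called (log2 fold change -0.30, SE 0.12, adjusted P = 0.046). Pfkfb2 made up 22.0% ± 1.17 of the summed FPKM of the 3 genes in MPs and 11.9% ± 1.52 in APL progenitors. Fbp1, the fructose bisphosphatase that runs the phosphofructokinase step backwards in gluconeogenesis, was upregulated from 185, 116 and 170 scaled fragments to 594, 726 and 662 (log2 fold change 2.09, SE 0.18, adjusted P = 9.6e-06). At 19.8 FPKM in APL progenitors, its level per length was below that of each of Pfkl, at 49.0 FPKM, and Pfkp, at 38.6 FPKM.

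From aldolase to enolase the leading isozyme of each step was the same in both groups, and 6 of the 10 genes were upregulated and 1 was downregulated, where 21.7% and 24.4% of all genes tested were. Aldoa, the main aldolase of both groups, rose from 10477, 9687 and 12089 scaled fragments to 20196, 25550 and 25023, a log2 fold change of 1.13 (SE 0.12, adjusted P = 4.5e-05). Aldoc, the brain-type aldolase, had the largest rise of the members. It had 30.9, 30.5 and 34.3 scaled fragments in MPs and 300, 286 and 315 in APL progenitors, a log2 fold change of 3.20 (SE 0.15, adjusted P = 2.5e-07). Its level stayed at 1.11% ± 0.163 of the summed aldolase FPKM in APL progenitors, up from 0.259% ± 0.0128 in MPs. Tpi1, the triose phosphate isomerase, had 9246, 9243 and 11579 scaled fragments in MPs and 9812, 11051 and 11392 in APL progenitors. Its groups overlapped and its log2 fold change of 0.11 (95% confidence interval -0.14 to 0.36, adjusted P = 0.41) was not called, with the sign reversed at equal library totals (-0.02).

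Gapdh, which oxidizes glyceraldehyde 3-phosphate, was the most abundant member per length in both groups, at rank 83 of all genes of the table in MPs and rank 28 in APL progenitors. It had 29961, 28887 and 41274 scaled fragments in MPs and 62159, 70044 and 66174 in APL progenitors (log2 fold change 1.00, SE 0.16, adjusted P = 0.00045). Gapdh is often taken as a reference gene for RT-PCR, and in these libraries it was at 1143 ± 200 FPKM in MPs and 2284 ± 145 FPKM in APL progenitors. Pgk1, which makes the first ATP of the pathway, had 9143, 9316 and 11180 scaled fragments in MPs and 17911, 19962 and 20238 in APL progenitors (log2 fold change 0.98, SE 0.10, adjusted P = 3.7e-05). Pgam1, a phosphoglycerate mutase, rose by 0.60 (SE 0.092, adjusted P = 0.0004), from 9522, 8294 and 9885 to 13120, 14234 and 14622. It passed the 1.5-fold threshold by a small margin, and fell under it without MP library 2, at 0.53, without APL library 3, at 0.57, and with equal totals, at 0.47. Bpgm, the bisphosphoglycerate mutase that supplies red cells with 2,3-bisphosphoglycerate, fell from 430, 401 and 533 to 250, 251 and 239 (log2 fold change -0.87, SE 0.13, adjusted P = 0.00028).

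Eno1, the ubiquitous enolase, rose from 17244, 15552 and 18786 scaled fragments to 37861, 45475 and 47702, a log2 fold change of 1.34 (SE 0.12, adjusted P = 1.5e-05). It held 98.1% ± 0.122 of the summed enolase FPKM in MPs and 99.5% ± 0.0395 in APL progenitors. The neuronal Eno2 was near the detection limit, between 2.86 and 16.2 scaled fragments per library, and no direction was taken from it. The muscle-type Eno3, with 253, 253 and 308 scaled fragments in MPs and 171, 193 and 194 in APL progenitors, did not reach the fold threshold (log2 fold change -0.54, SE 0.13, adjusted P = 0.0057), but was called downregulated without MP library 1, at -0.59, and with equal totals, at -0.67. Aldoa, Gapdh, Pgk1, Pgam1, Eno1, Tpi1 and Ldha have processed pseudogenes elsewhere in the genome, and how reads shared with such copies were counted is not given in the sources used here.

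**Figure D2:**
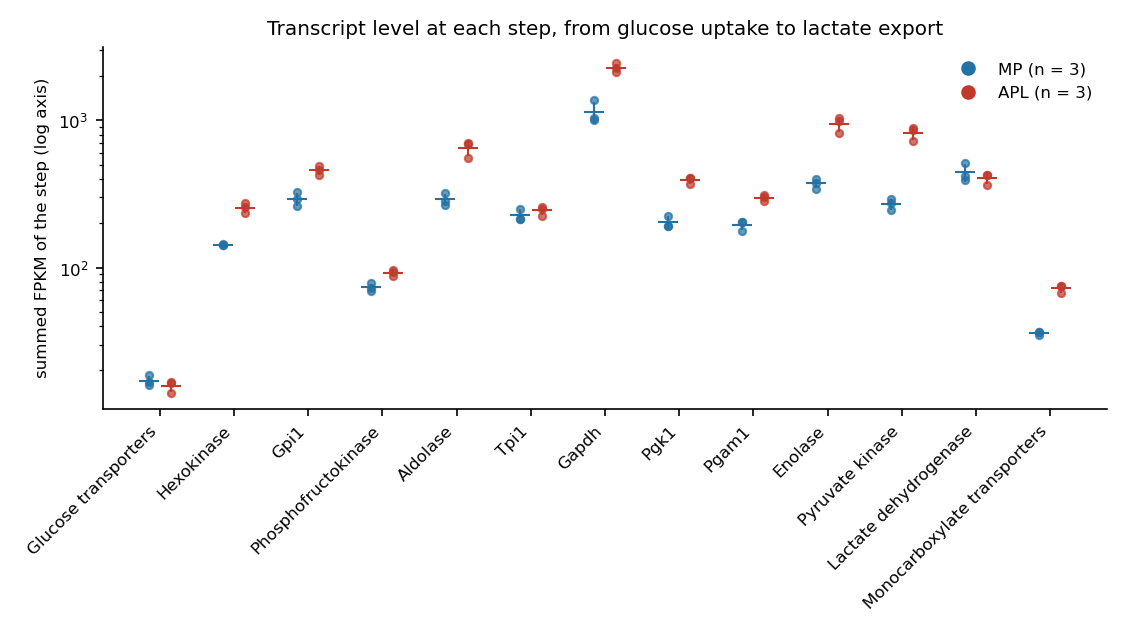
Summed FPKM of the genes of each step (log axis) for 3 MP (blue) and 3 APL (red) libraries, with the mean as a horizontal dash and the SD as a vertical bar. The APL libraries lie above the MP libraries at 10 of 13 steps, beside 31.1% of all single genes tested. They overlap at the member glucose transporters, Tpi1 and lactate dehydrogenase. The pyruvate kinase step sums Pklr, which fell, and Pkm, a gene outside the member list.

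The step from phosphoenolpyruvate to pyruvate held the largest change among the 40 members. Pklr (chr3:89136142-89146594), which encodes the liver and red cell pyruvate kinase and uses separate first exons for the 2 forms, had 2480, 2488 and 2928 scaled fragments in normal MPs and 9.43, 7.80 and 6.17 in APL progenitors. It fell by 8.24 on the log2 scale (SE 0.17, adjusted P = 5.6e-09), from 36.5 to 0.111 FPKM, and only 0.0206% of all genes tested had a lower fold change. Pkm, the pyruvate kinase of most proliferating cells and a gene outside the member list, had 16352, 14455 and 18062 scaled fragments in MPs and 49627, 61253 and 58179 in APL progenitors. That was a log2 fold change of 1.79 (SE 0.13, adjusted P = 2.8e-06). Pklr made up 13.5% ± 0.755 of the summed pyruvate kinase FPKM in MPs and 0.0138% ± 0.00450 in APL progenitors. The sum of both genes was 270 ± 23.0 FPKM in MPs and 824 ± 88.5 FPKM in APL progenitors, 3.05 times as high, which was the largest ratio among the 13 steps. The values are per gene, so the spliced M1 and M2 forms of Pkm were not told apart.

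Genes of red cell progenitors fell beside Pklr. Of 12 erythroid markers in the table, 9 of the 10 tested were downregulated and 1, Slc4a1, was not called (median log2 fold change -7.07), with 24.4% of all genes tested downregulated. Their summed level was 19644, 19700 and 21897 scaled fragments in the MP libraries and 154, 264 and 216 in the APL libraries, 96.7 times lower. Klf1, a transcription factor of the erythroid lineage and the most abundant of them per length in MPs, was at 95.5 FPKM there and at 0.477 FPKM in APL progenitors. Hba-a1, an alpha globin gene, was the most abundant in APL progenitors, at 10.2 FPKM against 71.7 FPKM in MPs, and had 66.0, 136 and 65.4 scaled fragments in the APL libraries. Hba-a2 and Hbb-b1 were not tested, and both were at or under the limit of 3 fragments in every APL library. In the MP libraries Hba-a2 had 114, 0 and 113 scaled fragments, and Hbb-b1 had 0.00134, 0.000492 and 4.97. Each shares its locus in the table with its near-identical copy, Hba-a1 or Hbb-b2, so fragments may have been assigned to the copy. Hbb-b2 had 14.8, 17.7 and 12.6 scaled fragments in the APL libraries. Megakaryocyte markers were downregulated for 5 of 7, beside the same 24.4% of all genes, and their sum was 12.1 times lower in APL progenitors. The part of these markers in the values of Pklr, Bpgm, Hk1 or Pfkm was not tested, and in bulk libraries fewer cells of a type and less RNA per cell cannot be told apart.

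The promoter of Pklr is shown because it carries the binding letters of the erythroid GATA factors. The 250 bases before its upstream start (chr3:89135892-89136141, plus strand, RefSeq on GRCm38.p6, the same build as mm10) hold 1 match to a GATA motif (AGATAA on either strand, with T also allowed first and G last), in capitals, which begins 35 bases before the start.

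Pklr: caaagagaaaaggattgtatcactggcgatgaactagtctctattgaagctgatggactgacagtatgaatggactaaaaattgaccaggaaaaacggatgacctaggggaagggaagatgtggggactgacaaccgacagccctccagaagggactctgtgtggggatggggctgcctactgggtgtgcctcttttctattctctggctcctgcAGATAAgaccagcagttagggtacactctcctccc

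The window of the second Pklr start held none of these letters. Among all 32851 promoter windows of this length, 26.5% held at least 1 match, against 19.6% of the 56 windows of the members and 33.3% of the windows of downregulated members. The 4 windows with a match among downregulated members belonged to 2 genes, Pfkm and Pklr.

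**Figure D3:**
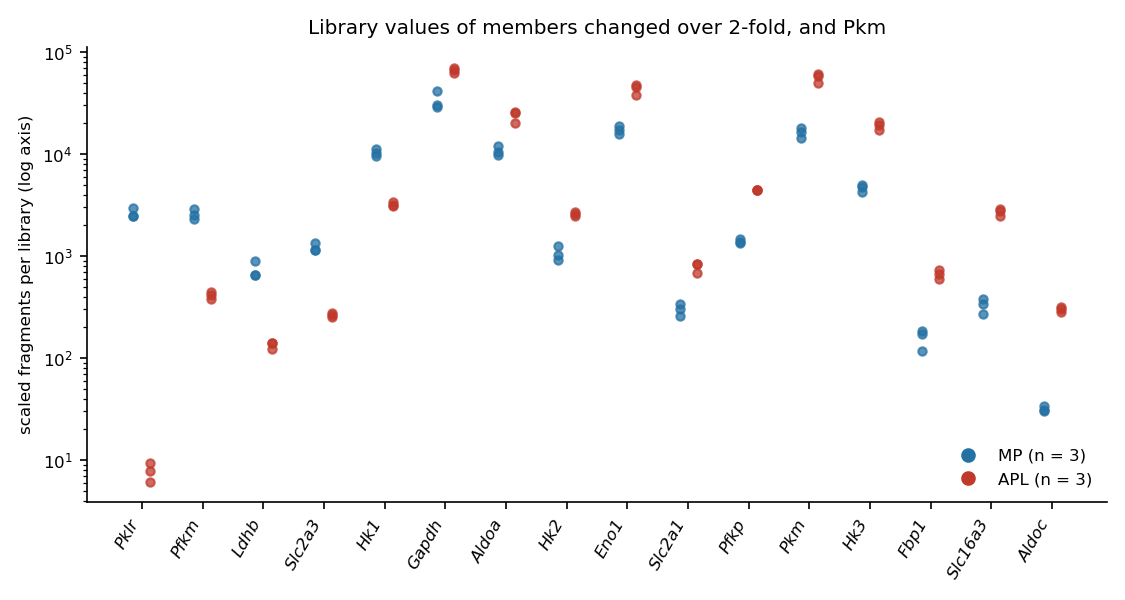
Scaled fragments in each of the 6 libraries (log axis; MP blue, APL red, n = 3 each) for the 15 members changed over 2-fold and for Pkm, ordered by fold change. In all 16 genes the groups are apart, as in 70.9% of all genes tested, and the 15 members were chosen for their change. Pklr drops from at least 2480 scaled fragments to at most 9.43.

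The lactate exporter genes changed places as the leading gene, while Ldha, at the step that makes lactate, was not called. Slc16a3 (chr11:120948484-120959000), which encodes MCT4, a lactate exporter of highly glycolytic cells, had 376, 271 and 337 scaled fragments in MPs and 2494, 2886 and 2777 in APL progenitors. Its log2 fold change was 3.06 (SE 0.12, adjusted P = 1e-07). Slc16a1, which encodes the widely expressed MCT1, had 3230, 3344 and 3363 in MPs and 2427, 2659 and 2733 in APL progenitors, which did not reach the fold threshold (log2 fold change -0.35, SE 0.070, adjusted P = 0.002). The MCT1 gene gave 83.3% ± 2.39 of the summed FPKM of the pair in MPs, and the MCT4 gene 68.4% ± 0.698 in APL progenitors. Their sum was 35.9 ± 0.999 FPKM in MPs and 72.4 ± 4.94 FPKM in APL progenitors, 2.02 times as high.

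Ldha, which encodes the subunit that favors lactate formation, was among the most abundant members. It had 15163, 16092 and 20660 scaled fragments in MPs and 14758, 17395 and 17295 in APL progenitors. The log2 fold change of -0.06 (adjusted P = 0.7) had a 95% confidence interval from -0.36 to 0.24, and its sign turned with median ratio scaling (0.0014). Ldhb, the subunit of oxidative tissues, fell from 655, 656 and 885 to 141, 122 and 139 scaled fragments, a log2 fold change of -2.42 (SE 0.14, adjusted P = 9.4e-07). Ldhb held 5.04% ± 0.124 of the summed FPKM of both subunits in MPs and 1.05% ± 0.155 in APL progenitors, and the summed level overlapped between the groups, at 443 ± 63.0 and 406 ± 34.3 FPKM.

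Promoters of Slc2a1, Pgk1, Slc16a3 and Ldha are set side by side because these genes are known targets of hypoxia-inducible factor, while 3 of them were upregulated and Ldha was not called. The capitals mark the core letters of its site, ACGTG or GCGTG on either strand. ACGTG also lies within CACGTG, the E-box bound by Myc, and GCGTG does not. Each run is the 250 bases before the first RefSeq start on the plus strand of GRCm38.p6, at chr4:119108495-119108744 for Slc2a1, chrX:106186850-106187099 for Pgk1, chr11:120948817-120949066 for Slc16a3 and chr7:46845554-46845803 for Ldha. The Slc16a3 run lies within the span of the gene in the table, which begins upstream of it at chr11:120948484.

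Slc2a1: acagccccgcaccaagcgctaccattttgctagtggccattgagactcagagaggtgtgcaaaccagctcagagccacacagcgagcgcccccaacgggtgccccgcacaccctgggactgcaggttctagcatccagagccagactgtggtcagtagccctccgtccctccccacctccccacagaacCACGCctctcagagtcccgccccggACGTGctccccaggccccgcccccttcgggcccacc
Pgk1: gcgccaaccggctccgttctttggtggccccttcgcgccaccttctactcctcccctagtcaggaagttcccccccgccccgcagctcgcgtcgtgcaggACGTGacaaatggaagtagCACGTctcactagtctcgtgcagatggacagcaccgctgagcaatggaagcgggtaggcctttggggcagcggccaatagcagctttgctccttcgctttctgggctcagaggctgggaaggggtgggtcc
Slc16a3: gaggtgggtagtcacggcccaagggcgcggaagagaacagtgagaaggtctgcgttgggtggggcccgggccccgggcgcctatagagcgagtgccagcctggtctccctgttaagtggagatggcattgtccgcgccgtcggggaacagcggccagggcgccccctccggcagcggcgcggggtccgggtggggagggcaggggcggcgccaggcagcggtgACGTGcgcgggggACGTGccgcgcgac
Ldha: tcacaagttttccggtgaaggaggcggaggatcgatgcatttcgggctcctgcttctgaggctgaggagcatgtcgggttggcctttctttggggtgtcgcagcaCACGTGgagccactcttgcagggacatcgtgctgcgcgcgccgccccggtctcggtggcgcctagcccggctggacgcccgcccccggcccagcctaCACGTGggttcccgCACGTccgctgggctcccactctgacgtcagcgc

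Slc2a1, Pgk1 and Slc16a3 each carried the letters in 2 places, and Ldha in 3 places with 5 matches, because CACGTG reads alike on both strands. Windows were found for 39 of the 40 members, and 42 of their 56 windows held the letters, against 38.6% of all windows. The letters were in 21 of 26 windows of upregulated members, 6 of 12 of downregulated members and 15 of 18 of those not called. The GC box GGGCGG was in 53.6% of the members' windows and 32.7% of all windows, and TATAAA in 2 of the 56 and 12.4% of all. These shares were not tested, and several windows belong to the same gene. A match to such letters is a description of the sequence and no evidence of binding.

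**Figure D4:**
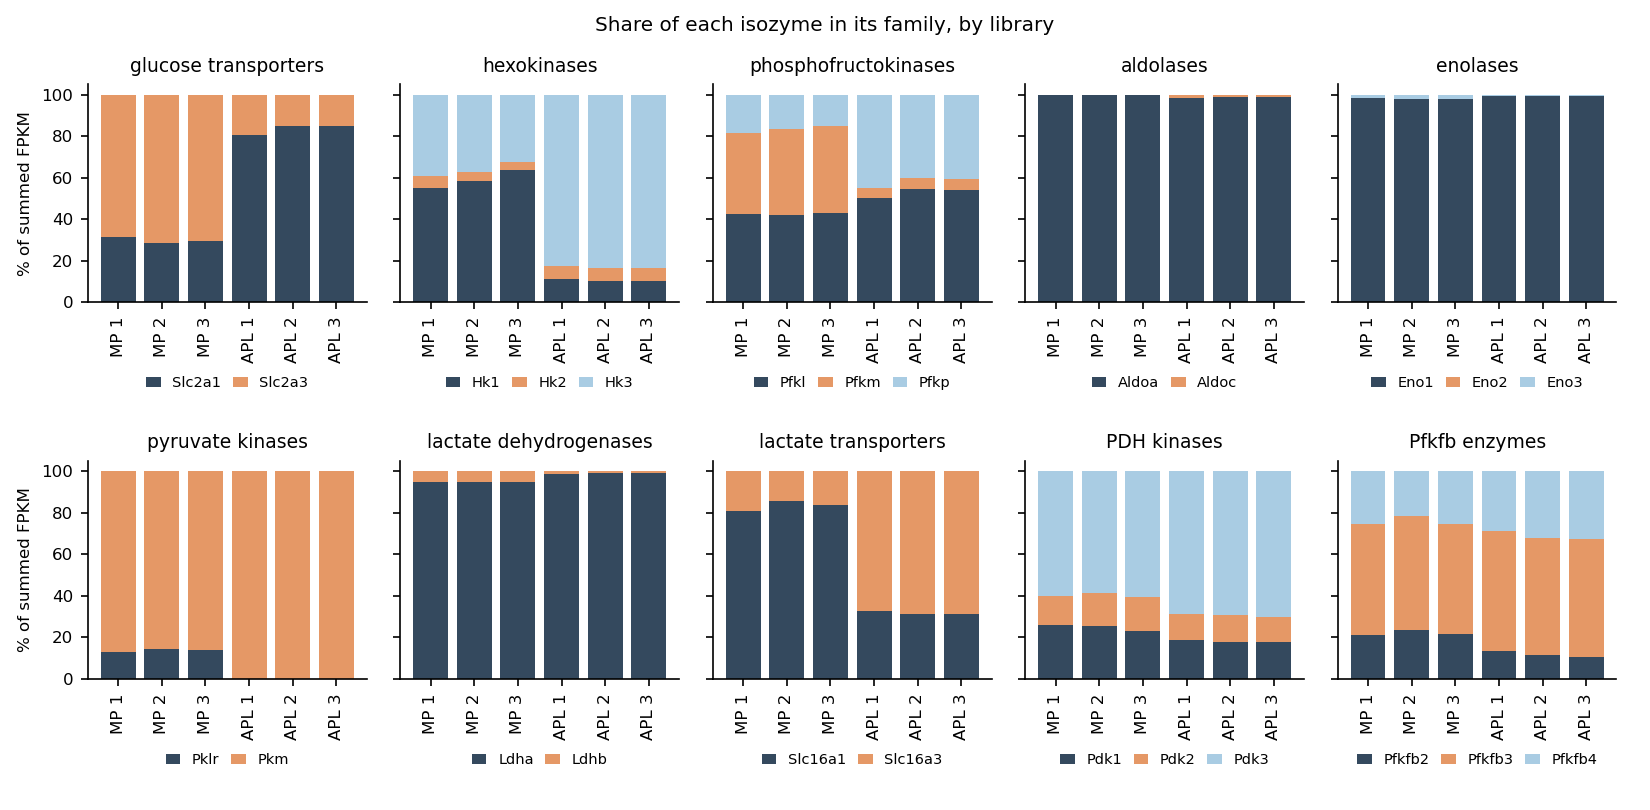
Share of each isozyme in the summed FPKM of its family (percent) in each of the 6 libraries, for 10 families. The leading gene differs between MP and APL libraries for glucose transporters (Slc2a3 to Slc2a1), hexokinases (Hk1 to Hk3) and lactate transporters (Slc16a1 to Slc16a3).

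The PDH gate, which admits pyruvate to the mitochondrial citric acid cycle, had 5 members. None was upregulated, 1 was downregulated and 4 were not called, where 21.7% of all genes tested were upregulated and 24.4% downregulated. For 4 of the 5 the APL libraries all lay below the MP libraries, against 39.8% of all genes tested. Pdk1, a kinase that switches PDH off and a known hypoxia target, had 1475, 1419 and 1521 scaled fragments in MPs and 887, 925 and 903 in APL progenitors, and was downregulated (log2 fold change -0.70, SE 0.068, adjusted P = 2.2e-05). Pdk2, another such kinase, was at 317, 362 and 461 against 247, 280 and 241, under the fold threshold (log2 fold change -0.55, adjusted P = 0.0098). It was called downregulated without MP library 1, at -0.67, without APL library 2, at -0.62, and with equal library totals, at -0.68. Pdk3 was at 1187, 1126 and 1400 in MPs and 1142, 1239 and 1244 in APL progenitors, with a log2 fold change of -0.03 (adjusted P = 0.8) whose sign turned with median ratio scaling (0.03). It was the leading PDH kinase per length, with 59.9% ± 1.10 of the summed FPKM of the 3 genes in MPs and 69.5% ± 0.684 in APL progenitors. Pdk1 took 24.7% ± 1.71 and 17.9% ± 0.447. The fourth kinase gene, Pdk4, outside the member list, was at or under 1 scaled fragment in every library. Of the enzyme itself, Pdha1 had a log2 fold change of -0.51 and Pdhb of -0.35. Neither reached the fold threshold, and with equal library totals Pdha1 was called downregulated, at -0.65.

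In the pentose phosphate pathway 3 of 7 members were upregulated and none was downregulated, where 21.7% and 24.4% of all genes tested were, and 2 of the 3 calls were lost with equal library totals. G6pdx, the glucose 6-phosphate dehydrogenase that opens the pathway, rose from 3991, 3533 and 4157 scaled fragments to 5866, 6462 and 6335 (log2 fold change 0.68, SE 0.082, adjusted P = 9.2e-05). Pgd, the second NADPH-forming enzyme, rose from 8609, 7032 and 7972 to 12786, 14234 and 15088 (log2 fold change 0.84, SE 0.10, adjusted P = 8.9e-05). Rpe, the ribulose phosphate epimerase, rose from 1637, 1624 and 1576 to 2613, 2548 and 2715 (log2 fold change 0.70, SE 0.063, adjusted P = 1.3e-05). The calls of G6pdx, at 0.55, and Rpe, at 0.57, were lost with equal library totals. The non-oxidative enzymes Tkt, a transketolase, and Taldo1, the transaldolase, had log2 fold changes of 0.46 and 0.49 with groups that did not overlap, below the fold threshold. Taldo1 was called upregulated without MP library 3, at 0.61. The lactonase Pgls, on chromosome 8, whose tested genes had a median 0.61 above that of the other chromosomes, was at 0.18 with overlapping groups, and the isomerase Rpia was at -0.32.

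Some members share their locus in the table with a neighboring gene, and how fragments were divided there is not given in the sources used here. This holds for 9 of the 40, among them Hk1, Hk3, Pfkm, Pfkp and G6pdx. The neighbor of Hk3, Unc5a, had at most 45.7 scaled fragments in a library, and that of Hk1, 2210417K05Rik, at most 20.7. Senp1, the neighbor of Pfkm, had 2638, 2582 and 2247 scaled fragments in MPs and 3108, 3129 and 3193 in APL progenitors, while Pfkm fell. Pitrm1, beside Pfkp, had 5589, 5923 and 6221 in MPs and 3331, 3443 and 3415 in APL progenitors, while Pfkp rose.

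Other genes of these pathways were taken from a list of related enzymes and transporters. Of the 45 tested, 16 were upregulated, 10 were downregulated and 19 were not called, with a median log2 fold change of 0.22, where 21.7% of all genes tested were upregulated and 24.4% downregulated. Tktl1 (chrX:74177259-74208498), a transketolase-like gene, was close to absent from MPs, at 2.81, 4.76 and 0.902 scaled fragments, and was at 1609, 1719 and 1630 in APL progenitors (log2 fold change 8.90, SE 0.36, adjusted P = 9.7e-08). Its level per length in APL progenitors, 24.7 FPKM, compares with 301 FPKM for Tkt. Hkdc1, a hexokinase-like gene named here after its values were seen, had 0.937, 0 and 0 scaled fragments in MPs and 181, 155 and 179 in APL progenitors, at least 61.6-fold higher when MPs are set to the limit of 3 fragments per library. At 1.57 FPKM it was far below Hk3, at 212 FPKM. H6pd, the glucose 6-phosphate dehydrogenase of the endoplasmic reticulum, rose by 1.51 (SE 0.081, adjusted P = 4.9e-07), from 1248, 1193 and 1052 to 3234, 3453 and 3260. Emb, a partner protein of monocarboxylate transporters, rose by 1.43 (SE 0.084, adjusted P = 8.9e-07), from 4039, 3548 and 4257 to 10272, 10630 and 10959.

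The mitochondrial pyruvate carrier brings pyruvate to PDH and is built from 2 proteins. Mpc2 was upregulated, from 539, 495 and 723 scaled fragments in MPs to 1269, 1349 and 1456 in APL progenitors (log2 fold change 1.23, SE 0.14, adjusted P = 5.4e-05). Its partner Mpc1 was at 1405, 1350 and 1617 against 1922, 2069 and 2083, under the fold threshold (log2 fold change 0.48, SE 0.085, adjusted P = 0.00097). Among genes of the list with a mean of at least 100 scaled fragments, those downregulated over 2-fold were Rbks, a ribokinase, Minpp1, a phosphatase that also acts on 2,3-bisphosphoglycerate, and Slc2a9, a urate transporter of the glucose transporter family. Rbks had 311, 328 and 425 scaled fragments in MPs and 70.7, 67.6 and 71.6 in APL progenitors (log2 fold change -2.31, SE 0.16, adjusted P = 2.1e-06). Minpp1 had 5438, 5719 and 6266 against 1161, 1320 and 1259 (log2 fold change -2.22, SE 0.081, adjusted P = 5.8e-08). Slc2a9 fell by 1.08 (SE 0.20, adjusted P = 0.0013), from 197, 186 and 296 to 89.5, 114 and 110.

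Of 25 regulators of the pathway tested, 7 were upregulated, 4 were downregulated and 14 were not called (median log2 fold change -0.11), with 46.1% of all genes tested being called. Hif1a, the oxygen-regulated subunit of hypoxia-inducible factor, had 2202, 2001 and 1833 scaled fragments in MPs and 5236, 5101 and 5422 in APL progenitors (log2 fold change 1.39, SE 0.081, adjusted P = 8.2e-07). Its prolyl hydroxylases Egln3 and Egln1, which mark the protein for breakdown and are themselves hypoxia targets, rose by 1.66 and 1.06, Egln1 lying on chromosome 8 with its upward shift. Mlx, the partner of the glucose-sensing Mondo factors, rose by 1.17. Epas1, Ppargc1a and Mlxipl were also upregulated, by 3.45, 3.19 and 1.35, at no more than 38.9 scaled fragments in a library. The downregulated regulators were Prkab1 and Prkaa2, subunits of AMP-activated protein kinase (log2 fold changes -0.88 and -2.93, the latter at most 45.7 scaled fragments in a library), Txnip, an inhibitor of glucose uptake (-0.74), and Trp53, which encodes p53 (-0.69). Myc, an activator of many glycolytic genes, had 8066, 8889 and 8916 scaled fragments in MPs and 6216, 7161 and 6399 in APL progenitors, under the fold threshold (log2 fold change -0.39, adjusted P = 0.0028).

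Of 12 known hypoxia targets outside glycolysis, 7 were upregulated, 1 was downregulated and 4 were not called, with a median log2 fold change of 0.92. Of all genes tested, 21.7% were upregulated and 24.4% downregulated. Vegfa, the angiogenic growth factor, had 1236, 1203 and 1119 scaled fragments in MPs and 3869, 4077 and 3935 in APL progenitors (log2 fold change 1.74, SE 0.068, adjusted P = 8.6e-08). Ero1l, an oxidase of protein folding, rose by 1.67 and Mxi1, an antagonist of Myc, by 1.32. Ndrg1, a stress-responsive gene on chromosome 15, rose by 1.28. The 1 downregulated gene, P4ha2, a collagen prolyl hydroxylase, was low in all libraries, at most 37.1 scaled fragments. None of the 18 tested enzymes of the citric acid cycle was upregulated and 4 were downregulated, where 21.7% and 24.4% of all genes tested were. The 4 were Idh3b, Sdha, Suclg1 and Sdhb, with log2 fold changes of -0.79, -0.74, -0.69 and -0.68. The other 14 were not called, and the median of the 18 was -0.43. For 15 of the 18 the APL libraries all lay below the MP libraries, against 39.8% of all genes tested.

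**Figure D5:**
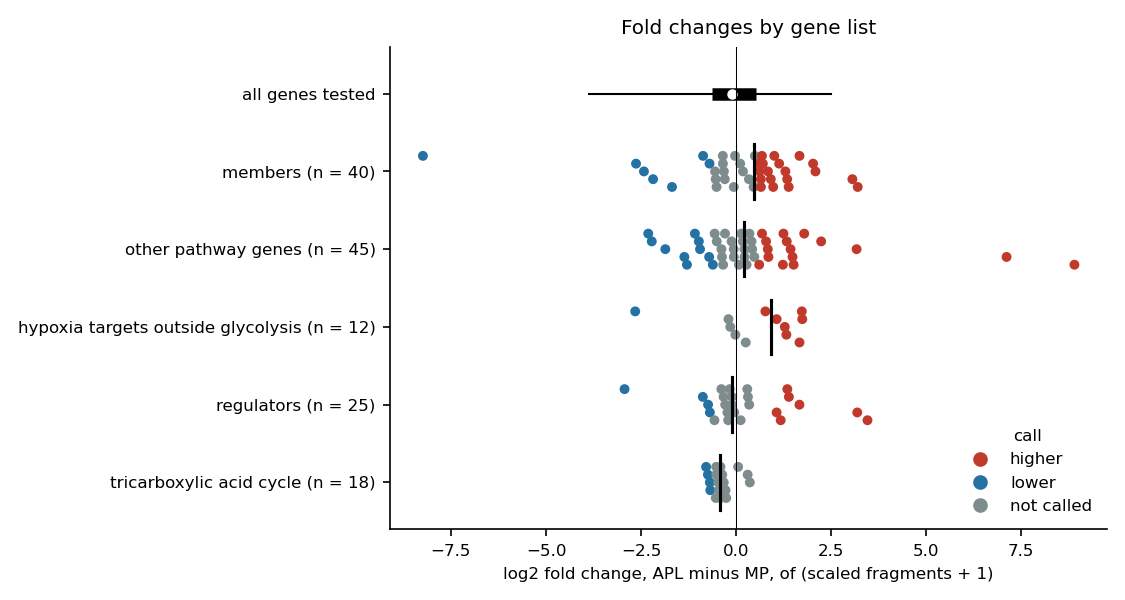
Log2 fold change (APL minus MP) of each tested gene in 5 lists, with the median as a vertical bar; the top bar gives all genes tested (white dot median, box from the 25% to the 75% quantile, line from 5% to 95%). The medians lie between 0.92 for hypoxia targets and -0.43 for the citric acid cycle, and the box of all genes spans -0.63 to 0.53.

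Markers of other cell types were also called, and their part in the values of the pathway was not tested. The counts below stand beside 21.7% upregulated and 24.4% downregulated among all genes tested. Neutrophil lineage markers were upregulated for 7 of 14 and downregulated for 3, and their sum was 477417, 383384 and 452262 scaled fragments in MPs and 1010427, 1164242 and 1149722 in APL progenitors. S100a8, a calcium-binding protein of granulocytes, was the most abundant of them, at 8951 FPKM in MPs and 42909 FPKM in APL progenitors. Sums of the other lists were lower in APL progenitors, by a factor of 3.60 for monocyte and dendritic cell markers (5 of 8 downregulated, 1 upregulated), 4.82 for mast cell and basophil markers (4 of 6 downregulated, 1 upregulated), 5.75 for eosinophil markers (4 of 4 downregulated), 3.18 for B cell markers (3 of 5 downregulated, 1 upregulated), 5.67 for T and NK cell markers (3 of 5 downregulated) and 3.25 for stromal and endothelial markers (4 of 7 downregulated, 2 upregulated). Ms4a1 and Cd3e, defining markers of B and T cells, were at or under the limit of 3 fragments in every library. The most abundant genes of these 6 lists per length were, in the same order, Irf8, Gata2, Prg2, Cd79b, Cd4 and Pecam1 in MPs and Ccr2, Mcpt8, Prg2, Vpreb1, Cd3d and Pecam1 in APL progenitors.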

How the data were processed

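RNA-seq of 3 MP and 3 APL libraries was analysed. The authors deposited 1 table with FPKM and with estimated fragments, a signal scaled by 1 factor per library; a single fragment was worth between 0.867 and 1.23 scaled fragments, and between 88.2% and 89.7% of values up to 100 fragments were whole multiples within 0.02. The labels name CASAVA 1.8, TopHat2 2.0.6 and mm10. The study's methods name STAR on mm9, HTSeq-count and DESeq2, and the tool behind the table is not given in the sources used here. Because the values were not raw counts, limma 3.58.1 (R 4.3.3; lmFit, eBayes with a trend) was fitted to log2(scaled fragments + 1) for genes with at least 1 scaled fragment in at least 3 of 6 libraries, with group as the only term. Fold changes are on that scale and understate changes of low genes. Genes were called at an adjusted P under 0.05 and a fold change over 1.5. Levels of different genes were compared by FPKM only. Shares of isozymes were compared by a two-sided exact permutation test in 10 families, and each gave the smallest possible p, 0.1. Coordinates are from the table, counted from 1; of 16336 genes matched by ID, 16295 overlapped the RefSeq gene on GRCm38.p6. Promoter motifs were searched in the 250 bases before RefSeq starts; Slc2a3 was not covered. The limma fit was first run on simulated data with few changed genes, unlike these data, which checks the code and not the calls made here. The members and lists were chosen with earlier results of these data known. Members changed over 2-fold or with isozymes are given by library. Of other lists except the markers, up to 4 genes per direction over 2-fold with a mean of at least 100 scaled fragments are named. Pkm, Pdk4, Mpc1 and Mpc2 are named whatever their result. Outside this rule, Hkdc1, Slc2a8, Myc, all called regulators and the downregulated hypoxia target and citric acid cycle genes are also named. Alternatives covered the filter, pseudocount, scaling, FPKM, voom weights, the replicate block, the thresholds and each library left out.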

Additional observations from a re-analysis of the deposited data

How the results depend on the processing

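Of the 40 members, 26 kept their direction and their side of the threshold under every alternative of filter, pseudocount, scaling, unit, weights, replicate block and left-out library. Of the 26 calls, 15 remained with a fold change over 2 and 17 with a test against a fold of 1.5. Over 719 recomputed member values, 20 lost a call, 11 gained one and 11 changed sign, the last in 4 genes that were not called (Tpi1, Eno2, Ldha and Pdk3). Tpi1 was at -0.0241 with equal library totals, -0.00051 with quantile normalization and -0.0239 with voom weights. Eno2 was at -0.0732 without MP library 2 and -0.0715 without APL library 1. Ldha was at 0.0014 with median ratio scaling, 0.0734 without MP library 3 and 0.0166 without APL library 1, and Pdk3 at 0.0330, 0.0624 and 0.0108 under the same settings. Leaving out each library in turn gave a range of -0.0732 to 1.01 for Eno2, -0.150 to 0.0734 for Ldha, -0.0942 to 0.0624 for Pdk3 and -0.0081 to 0.213 for G6pc3. Among the other pathway genes, Slc16a6 was at 0.0019 with median ratio scaling, and G6pc3 at -0.0578 with equal totals, -0.0586 with voom weights and -0.0081 without MP library 2; 30 of these 45 genes kept direction and call under the same alternatives, thresholds left aside. Equal totals and voom weights gave 10 members downregulated and 13 upregulated, and quantile normalization 8 and 16. Of all genes, equal totals gave 4376 downregulated and 2754 upregulated, voom weights 4264 and 2735, and quantile normalization 3277 and 3567. The cause was not tested. Gpi1, Pfkl, Pfkfb3, Pgam1, G6pdx and Rpe lost their call with equal totals and with voom weights, and Pfkl, Pgam1 and G6pdx with quantile normalization; Eno3, Pdk2 and Pdha1 were called with the first 2 and Pdha1 with the third. A fold change over 2 left 10 members upregulated, a test against a fold of 1.5 left 12, and FPKM with a pseudocount of 1 called 2201 of all genes downregulated, 2 alternatives stricter by construction and 1 that compresses low genes. With each library left out in turn, 7 to 9 members were downregulated and 17 to 19 upregulated, and of all genes 2913 to 3507 and 2734 to 3256. Leaving out libraries gave share differences, in percentage points of APL minus MP, of 52.9 to 55.1 for Slc2a1, -50.6 to -46.4 for Hk1, 9.62 to 11.7 for Pfkl, -0.920 to -0.759 for Aldoa, 1.33 to 1.44 for Eno1, -13.9 to -13.2 for Pklr, 3.93 to 4.08 for Ldha, -53.0 to -50.6 for Slc16a1, -7.69 to -6.04 for Pdk1 and -11.0 to -9.51 for Pfkfb2. On scaled fragments in place of FPKM the shares moved to 6.17 for Pfkl, 1.15 for Eno1, 3.24 for Ldha, -42.0 for Slc16a1, -9.54 for Pdk1 and -12.3 for Pfkfb2. Taking library numbers as a replicate block, 7 members were downregulated and 19 upregulated, the same 26 calls, and of all genes 3589 and 3164. Deviations of same-numbered libraries correlated at 0.329, -0.175 and 0.333, and those of different-numbered libraries between -0.527 and 0.413. Deviations were taken from the group mean, so with 3 libraries per group these values depend on each other. They cannot decide whether the numbers pair the libraries. The fold threshold left differences under 1.5-fold uncalled, also where the adjusted P passed, and genes with few fragments such as Eno2 were too shallow for a direction.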
